A study of Mus musculus with 24 samples.

Results

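The 8 genes described here encode regulators of mitochondrial gene expression: Ppargc1a, Ppargc1b, Perm1, Esrra, Esrrg, Ppara, Tfam and Nrf1. They were taken by gene name from 2-colour Agilent arrays of mouse heart (Perm1 through its RefSeq transcript), each gene by its probe with the highest mean heart signal. The 8 genes had 17 probes, of which 14 passed the filter on dim probes, and all 8 are among the 11419 genes and other features tested. Strain-matched mice aged 12 to 16 weeks were operated on in 4 sets: MuRF1 Tg+ mice with ischemia-reperfusion (I/R), MuRF1 Tg+ mice with sham surgery, wild-type (MuRF1+/+) mice with I/R and wild-type mice with sham surgery. Trim63 encodes MuRF1, a ubiquitin ligase of striated muscle, and I/R means that a coronary artery (the left anterior descending, LAD) was closed by a tie and later reopened. No source used here names the promoter that drives the transgene or the times of occlusion and reperfusion. Each set held 3 hearts, and from each heart a piece below and a piece above the tie (or its would-be site) went onto an array, which gave 8 groups of 3 and 24 arrays. All values are log2 ratios of heart RNA (Cy5) over a common pool of RNA from whole day 1 pups (Cy3), so a ratio of 0 means the level of the pup pool.

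PGC-1alpha and PGC-1beta, encoded by Ppargc1a and Ppargc1b, are coactivators: they bind no DNA themselves and raise transcription through factors that do. Among those factors are the estrogen-related receptors ERRalpha and ERRgamma (Esrra, Esrrg), PPARalpha (Ppara) and nuclear respiratory factor 1 (Nrf1), which switch on genes of fatty acid oxidation and the respiratory chain. Perm1 is a muscle protein induced by PGC-1 and the ERRs that in turn acts on ERR target genes, and Tfam carries the program into the mitochondrion, where it packages and transcribes mitochondrial DNA. The adult heart, which burns mostly fatty acids, is among the tissues where this network is best known.

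RefSeq promoter windows (build GRCm38.p6) were matched for 7 of the 8 genes, 11 windows in all, and the 250 bases before the start site were searched on both strands for 3 motifs of the network. Perm1 and Ppara are shown because both fell after I/R. Capitals mark the motifs, which are the ERR half-site AAGGTCA in Perm1 (here as its reverse complement, its first base at position -202 from the start site) and the NRF1 motif GCATGCGC in Ppara, where it matches once on each strand in 2 overlapping positions. The Perm1 window is chr4:156215677-156215926 on the plus strand, and the Ppara window is chr15:85735526-85735775 on the plus strand.
Perm1: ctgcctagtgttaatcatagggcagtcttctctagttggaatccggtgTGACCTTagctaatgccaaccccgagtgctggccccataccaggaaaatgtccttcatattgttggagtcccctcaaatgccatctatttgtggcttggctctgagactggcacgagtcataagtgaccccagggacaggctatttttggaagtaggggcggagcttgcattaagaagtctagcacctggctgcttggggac
Ppara: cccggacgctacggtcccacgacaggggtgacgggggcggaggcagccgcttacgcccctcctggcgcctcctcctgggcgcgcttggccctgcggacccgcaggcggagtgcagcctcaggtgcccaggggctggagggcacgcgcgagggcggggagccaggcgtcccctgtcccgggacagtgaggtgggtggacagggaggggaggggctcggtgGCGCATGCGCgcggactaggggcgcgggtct
The ERR half-site was present in 4.08% of 32817 such windows and the NRF1 motif in 2.25%. Esrra also held the NRF1 motif once, and Tfam held the ETS motif CCGGAAG bound by GABP once, which 6.9% of windows do. Windows of Ppargc1a, Esrrg (4 windows) and Nrf1 (2 windows) held none of these letters. A match describes the sequence alone.

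The Tfam window, chr10:71238045-71238294 on the minus strand, is shown because the brightest Tfam probe lies in it. Capitals mark the 61 bases that the 60-base probe matches on the strand of the gene, with 1 base of the genome not in the probe.
Tfam: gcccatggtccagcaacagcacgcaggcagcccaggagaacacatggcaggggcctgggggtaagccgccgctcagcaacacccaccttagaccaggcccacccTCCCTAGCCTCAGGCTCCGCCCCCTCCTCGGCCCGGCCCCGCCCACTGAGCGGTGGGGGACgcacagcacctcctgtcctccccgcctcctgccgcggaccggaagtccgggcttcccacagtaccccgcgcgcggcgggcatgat
This stretch runs from position -146 to -86 relative to the RefSeq start site, upstream of the RefSeq Tfam transcript. The array describes the probe by a partial cDNA of a testis-specific HMG-box protein and the mitochondrial factor together. No other probe of the 8 genes matched a window of its own gene, although no window was compared for Ppargc1b. The dimmer Tfam probe that passed the filter is described by the RefSeq transcript. The ratios of both are therefore given for I/R against sham, and other comparisons name the probe.

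The heart channel was weak on part of the I/R arrays. Between 9.9% and 38.3% of Cy5 spots were well above background on I/R arrays, against 34.6% to 43.3% on sham arrays. The 5 I/R arrays under 25% were replicate 1 of wild-type below, replicates 2 and 3 of Tg+ below and replicates 1 and 2 of wild-type above. They are called weak arrays here, and results that rest on them are given with and without them. Leaving them out leaves 1 I/R array in Tg+ below, 1 in wild-type above and 2 in wild-type below, so in the first 2 groups values over the 19 arrays rest on a lone I/R array that is assumed to vary like the other groups. Both pieces come from the same hearts, per the series' design, so a result seen below and above is not 2 independent results. Trim63 is not described here and its probes do not check the genotype labels, because no source used here says whether the transgene contains them.

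In sham hearts the 8 genes differed widely in their ratio to the pup pool. Over the 12 sham arrays Perm1 averaged 7.78-fold of the pool, Ppargc1a 3.65-fold, Esrra 2.88-fold, Esrrg 1.81-fold, Ppara 1.72-fold and Ppargc1b 1.45-fold. Nrf1 and the brighter Tfam probe were near the pool, at 0.985-fold and 0.913-fold. These are ratios of a probe to itself in another tissue and do not order the genes by abundance. The SD over the 12 sham arrays ran from 0.09 for Esrra and Nrf1 to 0.20 for Ppargc1a on the log2 scale.

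After I/R, PGC-1beta and PPARalpha transcripts were lower in both genotypes and both pieces. By the test described next, Perm1 fell in Tg+ below and wild-type above pieces only. The comparison asks how the injury altered each gene, in each genotype and piece. By limma's moderated test across all features, with Benjamini-Hochberg adjustment and a threshold of 0.05, 4 of the 8 genes fell in Tg+ below pieces, 2 in Tg+ above, 2 in wild-type below and 3 in wild-type above. Of all features, 17.1%, 8.38%, 3.46% and 7.3% fell in the same comparisons, and 15.4%, 6.94%, 2.14% and 5.96% rose. None of the 8 rose past the threshold. Without the weak arrays the brighter Tfam probe rose in Tg+ above. With all arrays the dimmer Tfam probe fell there (-0.81, limma adjusted p = 0.00104). The median log2 difference of the 8 genes was -0.69, -0.31, -0.46 and -0.52 in that order, against a median of 0 over all features in each. Without the 5 weak arrays, 3, 4, 2 and 3 of the 8 fell, and 1 rose in Tg+ above, where the first and last count rest on 1 I/R array each. The background without them was 6.71%, 19.7%, 6.66% and 5.54% of features lower and 6.8%, 22.1%, 5.14% and 7.39% higher.

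**Figure D1:**
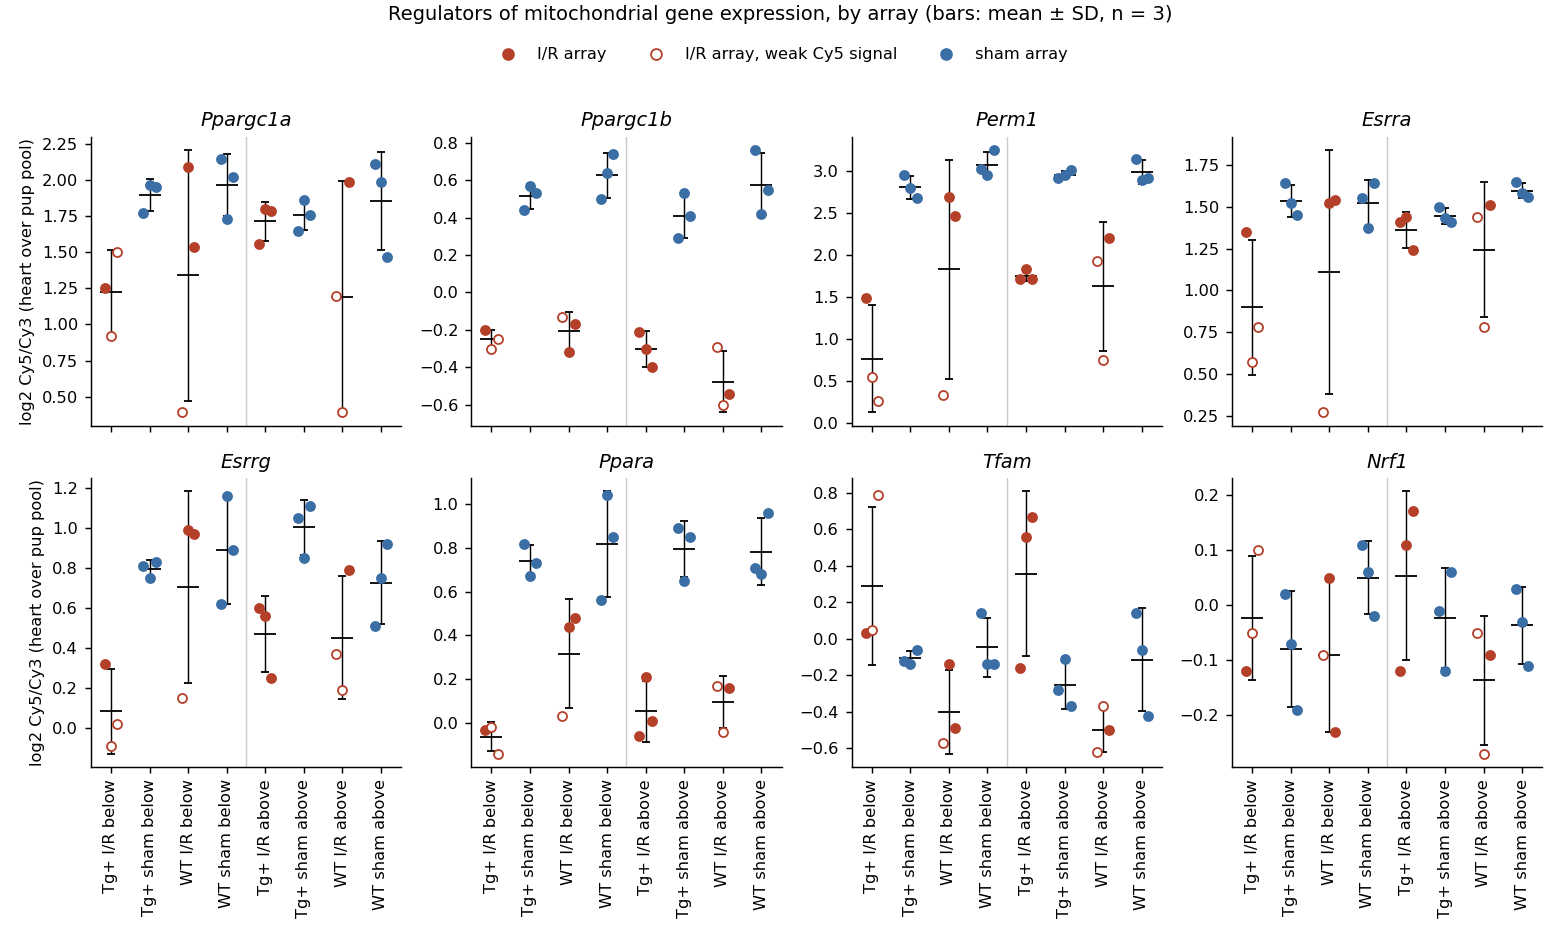
Log2 Cy5/Cy3 ratio of the 8 genes on each of the 24 arrays, by group (3 points a group, with the mean and SD as bars; open points are the 5 I/R arrays of weak Cy5 signal; below pieces left, above pieces right of the grey line). In Ppargc1b and Ppara every I/R point lies under every sham point, while in Ppargc1a and Esrra the low points are mostly the weak arrays.

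Ppargc1b, the coactivator PGC-1beta, had log2 ratios of -0.20, -0.30 and -0.25 (replicates 1, 2 and 3) in Tg+ I/R below pieces, against 0.44, 0.57 and 0.53 in Tg+ sham below pieces. Above the tie the Tg+ ratios were -0.21, -0.30 and -0.40 after I/R, against 0.29, 0.53 and 0.41 after sham surgery. The 3 I/R arrays lay under the 3 sham arrays in both pieces, with a distance between the groups several times their spread. Wild-type below pieces had -0.13, -0.32 and -0.17 after I/R, against 0.50, 0.64 and 0.74 after sham surgery. Wild-type above pieces had -0.29, -0.60 and -0.54 after I/R, against 0.76, 0.42 and 0.55 after sham surgery. Wild-type groups did not overlap either, so that all 12 I/R arrays (-0.60 to -0.13) lay under all 12 sham arrays (0.29 to 0.76), as did 2.75% of the 11344 features measured on every array. Its probe was not well above background on 3 of the 12 I/R arrays, all of them weak arrays.

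The fitted difference of Ppargc1b was -0.76 ± 0.10 (SE, limma adjusted p = 7.49e-05) in Tg+ below, -0.71 ± 0.10 (adjusted p = 0.000254) in Tg+ above, -0.83 ± 0.10 (adjusted p = 0.000118) in wild-type below and -1.05 ± 0.10 (adjusted p = 1.14e-05) in wild-type above. In folds this is a ratio lower by 1.70, 1.64, 1.78 and 2.08 times. Over the 12 I/R arrays Pearson's r between the ratio and the share of Cy5 spots well above background was -0.0283, a description of arrays from 6 hearts. On the other 19 arrays the difference was -0.71, -0.71, -0.87 and -1.12, each past the threshold, with a lone I/R array in Tg+ below and in wild-type above. The other 2 Ppargc1b probes followed the brightest one over the 24 arrays (r = 0.97 and 0.937) and fell in all 4 comparisons, by -1.06 to -0.53. From Agilent's own log ratio in place of the loess ratio, Ppargc1b missed the threshold in Tg+ above (-0.92, limma adjusted p = 0.351) and in wild-type below (-1.44, adjusted p = 0.172). The deposited series table of log2 ratios lost the same calls (adjusted p = 0.352 and 0.172). The Tg+ above call was also lost from the Cy5 channel alone (-0.63, adjusted p = 0.184). Fitting only the arrays of the comparison ended the wild-type below call (-0.83, adjusted p = 0.082). Tested probe by probe, 17.5%, 9.17%, 3.33% and 7.76% of the 15412 probes fell in Tg+ below, Tg+ above, wild-type below and wild-type above.

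Ppara encodes PPARalpha, the nuclear receptor that senses fatty acids and drives their oxidation. Its log2 ratios in Tg+ below pieces were -0.03, -0.02 and -0.14 after I/R, against 0.82, 0.67 and 0.73 after sham surgery. In Tg+ above pieces they were -0.06, 0.21 and 0.01 after I/R, against 0.89, 0.65 and 0.85. All 6 Tg+ sham ratios were above 0 and the Tg+ I/R ratios lay around it. The probe was well above background on 8 of 12 I/R arrays and on only 1 of the 3 in Tg+ below. Wild-type below pieces had 0.03, 0.44 and 0.48 after I/R, against 0.56, 1.04 and 0.85 after sham surgery, and wild-type above pieces 0.17, -0.04 and 0.16, against 0.71, 0.68 and 0.96. Again all 12 I/R arrays (-0.14 to 0.48) lay under all 12 sham arrays (0.56 to 1.04), with the narrowest gap in wild-type below.

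The difference of Ppara was -0.80 ± 0.13 (limma adjusted p = 0.000319) in Tg+ below, -0.75 ± 0.13 (adjusted p = 0.00141) in Tg+ above, -0.50 ± 0.13 (adjusted p = 0.0286) in wild-type below and -0.69 ± 0.13 (adjusted p = 0.00225) in wild-type above. On the other 19 arrays it was -0.77, -0.75, -0.36 and -0.62, and the wild-type below value then missed the threshold (adjusted p = 0.0760). The same call was lost with slide as a block (-0.60, adjusted p = 0.193), as was the wild-type above call (-0.61, adjusted p = 0.0981). From Agilent's own log ratio the Tg+ above call (-1.06, adjusted p = 0.0803) and the wild-type below call (-0.95, adjusted p = 0.157) were lost. Both were also lost from the Cy5 channel alone (-0.61, adjusted p = 0.0603, and -0.57, adjusted p = 0.105). Leaving out wild-type sham below replicate 2 or 3, or the weak wild-type I/R below replicate 1, also ended the wild-type below call (-0.39, -0.48 and -0.36, adjusted p = 0.142, 0.099 and 0.12). The array held 1 Ppara probe.

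Perm1 had the widest range of the 8 genes among I/R arrays. Tg+ below pieces had log2 ratios of 1.49, 0.55 and 0.26 after I/R, against 2.95, 2.80 and 2.68 after sham surgery. In Tg+ above pieces the values were 1.72, 1.83 and 1.72 after I/R, against 2.92, 2.95 and 3.01. Those last groups were tight and lay more than 1 log2 unit apart. Wild-type below pieces had 0.33, 2.69 and 2.47 after I/R, against 3.03, 2.95 and 3.25, and wild-type above pieces had 1.93, 0.75 and 2.20 after I/R, against 3.15, 2.90 and 2.92. The lowest values, 0.26, 0.33, 0.55 and 0.75, all came from weak arrays, and only wild-type below replicate 2, at 2.69, reached the sham range of 2.68 to 3.25.

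Perm1 fell by 2.04 ± 0.44 on the log2 scale in Tg+ below (4.13-fold, limma adjusted p = 0.0028) and by 1.36 ± 0.44 in wild-type above (2.57-fold, adjusted p = 0.0486). In Tg+ above the difference was -1.20 ± 0.44 (adjusted p = 0.0707) and in wild-type below -1.25 ± 0.44 (adjusted p = 0.107), neither past the threshold. Without the weak arrays the standard errors were smaller and all 4 differences were nearer to 0 or the same: -1.32 ± 0.13, -1.20 ± 0.09, -0.50 ± 0.11 and -0.79 ± 0.13 in Tg+ below, Tg+ above, wild-type below and wild-type above. All 4 then passed the threshold (limma adjusted p = 2.86e-05, 5.41e-07, 0.00581 and 0.000922), the Tg+ below and wild-type above values with a lone I/R array and the spread of the other groups. With slide as a block the Tg+ below value was -1.99 (adjusted p = 0.11) and the wild-type above value -1.08 (adjusted p = 0.423), so both calls were lost. Over 14 alternative settings the wild-type above call held in 5. It was lost without background correction (-1.22, adjusted p = 0.0675), with an offset of 10 (-1.15, adjusted p = 0.0872) and from Agilent's log ratio (-0.71, adjusted p = 0.297). The wild-type above call was also lost when any 1 of wild-type sham above replicates 1, 2 and 3 or wild-type I/R above replicates 1 and 2 was left out (differences of -1.51 to -0.92, adjusted p = 0.0682 to 0.253). Without wild-type I/R below replicate 2, the array in the sham range, Perm1 fell by 1.68 in wild-type below (adjusted p = 0.0353). A dimmer Perm1 probe, well above background on 14 of 24 arrays, followed the bright one (r = 0.859). It fell in 3 of the 4 comparisons (-0.45, -0.56 and -0.57 in Tg+ below, Tg+ above and wild-type above) and missed the threshold in wild-type below (-0.31, adjusted p = 0.218).

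**Figure D2:**
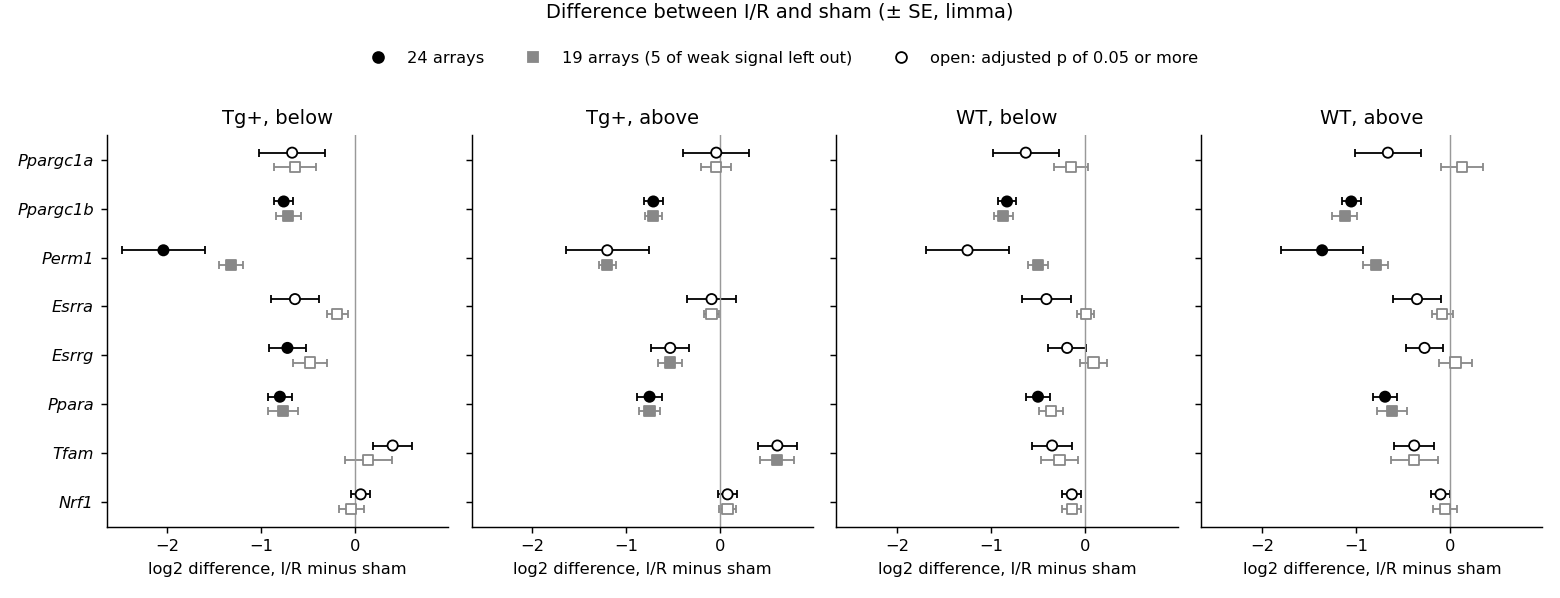
Log2 difference between I/R and sham (with the standard error of the limma fit) of the 8 genes in the 4 combinations of genotype and piece, from all 24 arrays (circles) and from the 19 left without the weak arrays (squares), where filled symbols passed an adjusted p of 0.05. Ppargc1b lies between -1.12 and -0.71 throughout, and the Perm1 error bars are shorter in the 19 arrays.

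Ppargc1a, the coactivator PGC-1alpha, is the gene of the pair known for its induction by cold, fasting and exercise. Its log2 ratios in Tg+ below pieces were 1.25, 0.92 and 1.5 after I/R, against 1.77, 1.97 and 1.95 after sham surgery. Above the tie they were 1.56, 1.80 and 1.79 in Tg+ I/R pieces, against 1.65, 1.86 and 1.76 in Tg+ sham pieces. The groups were apart below the tie and overlapped above it, and the share of features apart in this way was not computed. Wild-type I/R pieces ranged from 0.39 to 2.09 below and from 0.39 to 1.99 above, against 1.73 to 2.15 and 1.47 to 2.11 in wild-type sham pieces.
No difference of Ppargc1a passed the threshold: -0.67 ± 0.35 (limma adjusted p = 0.134) in Tg+ below, -0.04 ± 0.35 (adjusted p = 0.944) in Tg+ above, -0.63 ± 0.35 (adjusted p = 0.323) in wild-type below and -0.66 ± 0.35 (adjusted p = 0.199) in wild-type above. The 7 I/R arrays of stronger signal spanned 1.25 to 2.09, of which 6 lay in the sham range of 1.47 to 2.15, and the 5 weak arrays spanned 0.39 to 1.5. Leaving out wild-type I/R above replicate 3, an array of stronger signal, gave -1.06 in wild-type above (adjusted p = 0.0379). Without the weak arrays the wild-type differences were -0.15 ± 0.18 below and 0.13 ± 0.22 above. A second Ppargc1a probe, well above background on 22 arrays (r = 0.836 with the first), gave -0.71, 0.13, -0.10 and -0.23 in Tg+ below, Tg+ above, wild-type below and wild-type above, none past the threshold. The difference between the coactivators in wild-type pieces was not tested.

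The estrogen-related receptors also followed the strength of the array. Esrra, which encodes ERRalpha, had log2 ratios of 1.35, 0.57 and 0.78 in Tg+ I/R below pieces, against 1.64, 1.52 and 1.45 in Tg+ sham below pieces, a difference of -0.64 ± 0.26 (limma adjusted p = 0.062). Its differences were -0.09 ± 0.26 in Tg+ above, -0.41 ± 0.26 in wild-type below and -0.35 ± 0.26 in wild-type above, none past the threshold. On the 7 stronger I/R arrays Esrra ranged from 1.24 to 1.54, against 1.37 to 1.65 on sham arrays, and on the 5 weak ones from 0.27 to 1.44. Without the weak arrays its differences ran from -0.19 to 0.01, while leaving out the stronger Tg+ I/R below replicate 1 alone gave -0.86 in Tg+ below (adjusted p = 0.0166). A dim second Esrra probe, well above background on 14 arrays, ran against the bright one (r = -0.79) and gave no difference past the threshold.

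Esrrg encodes ERRgamma, the form abundant in tissues of high oxidative capacity. In Tg+ below pieces its log2 ratios were 0.32, -0.09 and 0.02 after I/R, against 0.81, 0.75 and 0.83 after sham surgery. The difference was -0.72 ± 0.20 (limma adjusted p = 0.0121), and since the probe was not well above background on any of those 3 I/R arrays, the sham level is given as at least 1.53-fold higher than the I/R level. In Tg+ above pieces the ratios were 0.60, 0.56 and 0.25 after I/R, against 1.05, 0.85 and 1.11. That difference, -0.53 ± 0.20, missed the threshold (limma adjusted p = 0.0745). Wild-type differences were smaller, at -0.19 ± 0.20 below and -0.27 ± 0.20 above, neither past the threshold.
With the weak arrays left out, Esrrg passed in Tg+ above (-0.53 ± 0.13, limma adjusted p = 0.0038) and missed the threshold in Tg+ below (-0.48 ± 0.18, adjusted p = 0.0907). With slide as a block the Tg+ below value was -0.78 (adjusted p = 0.142), and without the weak Tg+ I/R below replicate 2 it was -0.63 (adjusted p = 0.0615). Only 7 of 12 I/R arrays, against 12 of 12 sham arrays, measured Esrrg well above background.

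**Figure D3:**
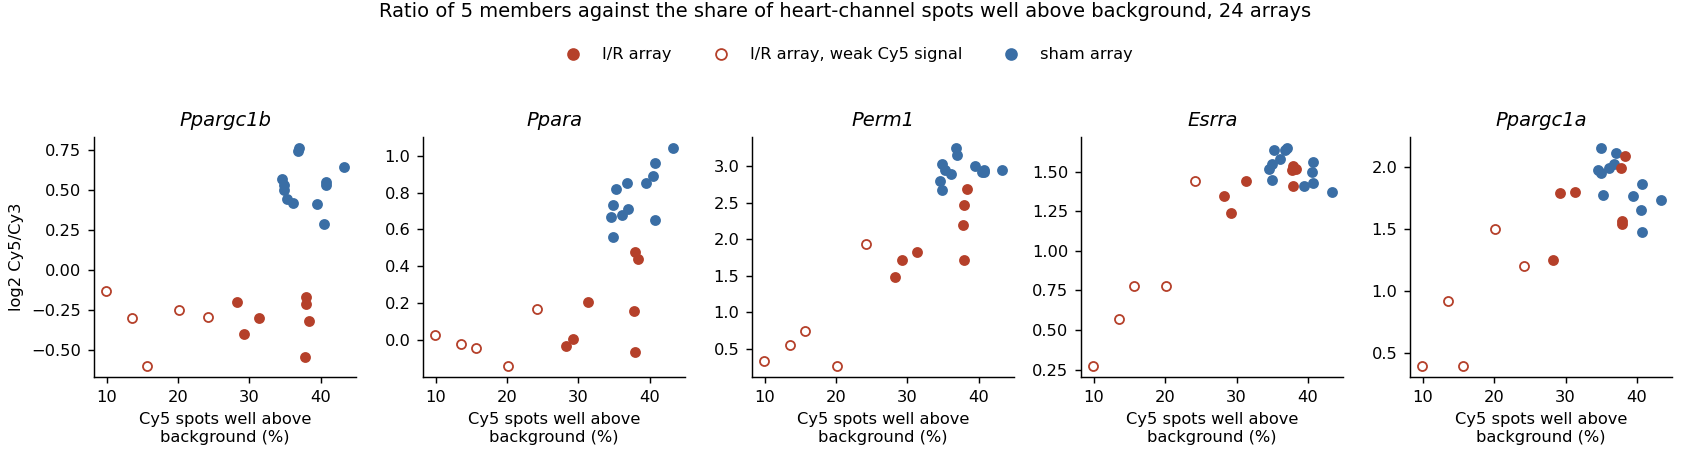
Log2 Cy5/Cy3 ratio of Ppargc1b, Ppara, Perm1, Esrra and Ppargc1a (one panel each) against the percentage of Cy5 spots well above background on the 24 arrays, with I/R arrays in red (open where weak) and sham arrays in blue. Over the I/R arrays r was -0.0283 for Ppargc1b and 0.581 for Ppara, against 0.858 to 0.926 in the other panels.

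Over the 12 I/R arrays Pearson's r between the ratio and the share of Cy5 spots well above background was 0.926 for Esrra, 0.898 for Perm1, 0.878 for Esrrg, 0.858 for Ppargc1a and 0.581 for Ppara. For Nrf1 and the brighter Tfam probe it was 0.0672 and -0.0146. These points share hearts and slides, and the part of signal strength in these ratios was not tested. On each of the 4 slides that held an I/R and a sham array of the same genotype and piece, Ppargc1b (-1.05 to -0.71), Perm1 (-2.13 to -0.78) and Ppara (-0.75 to -0.37) were lower on the I/R array. On 2 of these slides the I/R array was a weak one. The same 4 pairs gave -1.03 to 0.04 for Ppargc1a and -0.88 to 0.03 for Esrra.

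Tfam gave opposite results by its 2 probes in Tg+ hearts. The brighter probe, which lies upstream of the RefSeq start site, had log2 ratios of 0.03, 0.05 and 0.79 in Tg+ I/R below pieces, against -0.12, -0.14 and -0.06 in Tg+ sham below pieces. In Tg+ above pieces it had -0.16, 0.56 and 0.67 after I/R, against -0.28, -0.11 and -0.37. It was thus high on 3 of the 6 Tg+ I/R arrays and near the sham level on the others. Wild-type pieces had -0.57, -0.14 and -0.49 below and -0.62, -0.37 and -0.50 above after I/R, against 0.14, -0.14 and -0.14 below and 0.14, -0.06 and -0.42 above after sham surgery.
The difference of the brighter probe was 0.40 ± 0.21 (limma adjusted p = 0.138) in Tg+ below, 0.61 ± 0.21 (adjusted p = 0.0522) in Tg+ above, -0.35 ± 0.21 (adjusted p = 0.357) in wild-type below and -0.38 ± 0.21 (adjusted p = 0.219) in wild-type above. None passed the threshold with all arrays, and the Tg+ above value passed without the weak arrays (adjusted p = 0.0119), although none of the 6 arrays of that comparison is weak. It also passed without Tg+ I/R above replicate 1 (0.87, adjusted p = 0.00743). With slide as a block the wild-type above value was -0.89 and passed (adjusted p = 0.0462).

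The dimmer probe, described by the RefSeq transcript, had -0.27, -0.33 and -0.64 in Tg+ I/R below pieces, against 0.26, 0.24 and 0.13 in Tg+ sham below pieces. In Tg+ above pieces it had -0.29, -0.45 and -0.47 after I/R, against 0.59, 0.29 and 0.35. All 6 Tg+ I/R arrays, from 3 hearts, were thus under all 6 Tg+ sham arrays, from 3 others. The share of probes apart in this way was not computed. The dimmer probe fell by 0.63 (limma adjusted p = 0.00267) below and by 0.81 (adjusted p = 0.00104) above. It was tested among the 15412 probes, of which 17.5% and 9.17% fell in the same comparisons. In wild-type pieces its differences were -0.20 (adjusted p = 0.432) below and -0.24 (adjusted p = 0.222) above. Over the 24 arrays the 2 probes ran against each other (r = -0.623).
G and C made up 78.3% of the bases of the brighter probe and 45% of those of the dimmer one, against a median of 40% over 41174 probes. Only 15 probes (0.0364%) had as high a share. The 3 features most like the brighter probe over the 24 arrays were 9530080O11Rik (r = 0.983), NAP050809-1 (r = 0.976) and the unnamed probe A_51_P443920 (r = 0.973), whose probes hold 80%, 86.7% and 65% G and C.

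**Figure D4:**
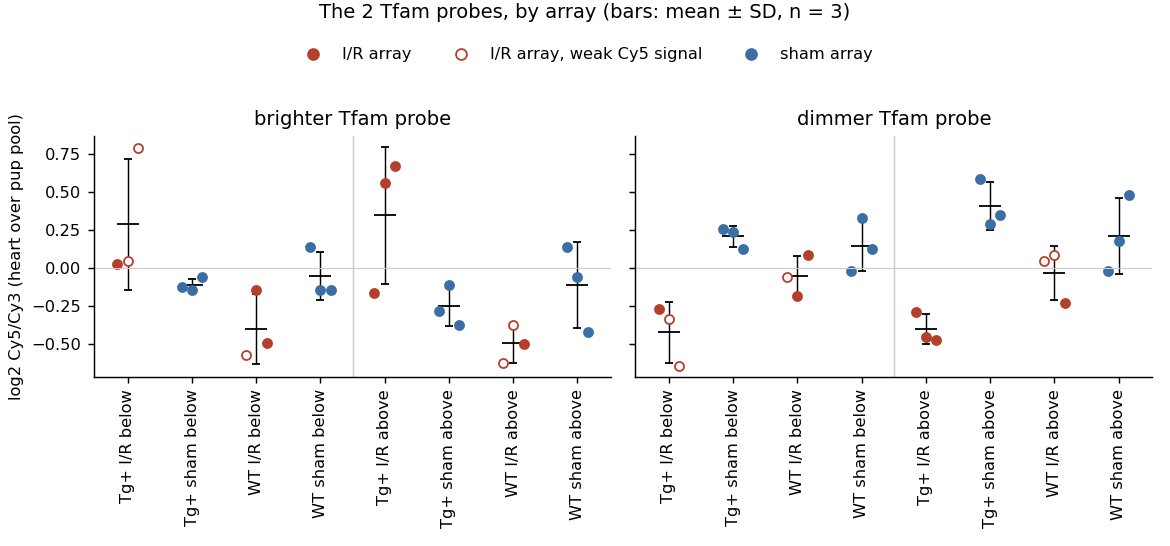
Log2 Cy5/Cy3 ratio of the brighter Tfam probe (left panel) and the dimmer one (right panel) on the 24 arrays, by group, with the mean and SD of 3 arrays as bars and weak arrays as open points. In Tg+ hearts the brighter probe has I/R means of 0.29 and 0.35 and sham means under 0, and the dimmer probe I/R means of -0.42 and -0.40 and sham means above 0.

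Nrf1, which encodes a factor of respiratory chain and Tfam promoters, was dim. Its probe was well above background on 1 of 12 I/R arrays, against 9 of 12 sham arrays, so its ratios are close to a floor. They ranged from -0.27 to 0.17 on I/R arrays, against -0.19 to 0.11 on sham arrays, and differences ran from -0.14 to 0.08, none past the threshold. A change of Nrf1 was not detectable at this signal.

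Next, Tg+ hearts were set against wild-type hearts, the comparison that asks what the transgene altered. None of the 8 genes passed the threshold in limma's test in sham hearts, below or above, where 0.0263% and 0.035% of features did, and none had an unadjusted p under 0.05. Differences between Tg+ and wild-type sham hearts were small: -0.27 to 0.02 below and -0.16 to 0.28 above. After I/R again none passed, where 2.9% of features did below and 0.657% above, with 4 genes below and 1 above at an unadjusted p under 0.05, against 2846 and 1605 of the 11419 features.
Those 4 genes in I/R below pieces were Ppara (-0.38 ± 0.13, adjusted p = 0.0971), Esrrg (-0.62 ± 0.20, adjusted p = 0.0872) and Perm1 (-1.06 ± 0.44, adjusted p = 0.155), lower in Tg+, and the brighter Tfam probe (0.69 ± 0.21, adjusted p = 0.0723). In I/R above pieces it was the brighter Tfam probe alone (0.85 ± 0.21, limma adjusted p = 0.0651). With slide as a block this probe passed there (1.33, adjusted p = 0.0334). In the fit over all probes the dimmer Tfam probe gave the opposite sign in the same comparisons, -0.36 ± 0.13 below (limma adjusted p = 0.117) and -0.38 ± 0.13 above (adjusted p = 0.197). Without the weak arrays 2 genes passed in I/R below pieces, Perm1 (-1.09, adjusted p = 0.00183) and Esrrg (-0.66, adjusted p = 0.0466), where 1 Tg+ array and 2 wild-type arrays were left, the lone Tg+ array is assumed to vary like the other groups, and 7.7% of features passed. None passed above, against 0.772% of features.

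Whether I/R acted differently in the genotypes was tested as an interaction. None of the 8 genes passed below or above in limma's test, where 0.0175% of features did in each, with 1 and 2 of the 8 at an unadjusted p under 0.05, against 1201 and 945 of all features. The brighter Tfam probe had an interaction of 0.75 ± 0.29 below (adjusted p = 0.419) and 0.99 ± 0.29 above (adjusted p = 0.346), and the dimmer one, of opposite sign in the fit over all probes, -0.43 ± 0.19 below (adjusted p = 0.455) and -0.57 ± 0.19 above (adjusted p = 0.386). Perm1 had -0.80 ± 0.63 below (adjusted p = 0.609) and 0.16 ± 0.63 above. For Ppargc1b it was 0.07 ± 0.14 below and 0.34 ± 0.14 above (adjusted p = 0.518), and for Ppara -0.30 ± 0.18 below and -0.06 ± 0.18 above.

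Tissue below the tie was also set against tissue above it, averaged over the genotypes. None of the 8 genes differed past the threshold in limma's test after I/R, where 0.175% of features did, or after sham surgery, where 0% did and 58 features had an unadjusted p under 0.05. Below minus above was 0.16 ± 0.07 for Ppargc1b after I/R (adjusted p = 0.441), the one difference of the 8 with an unadjusted p under 0.05 (1146 of the 11419 features had one), and 0.08 ± 0.07 after sham surgery. For Perm1 it was -0.39 ± 0.31 after I/R and -0.03 ± 0.31 after sham surgery. The interaction of piece and surgery likewise gave no call among the 8, against 0% of features in Tg+ and 0% in wild type, with 715 and 206 features and none of the 8 at an unadjusted p under 0.05.

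Among the 8 genes, the ratios of Ppara followed those of Perm1 (r = 0.882) and Ppargc1b (r = 0.867) over the 24 arrays, and did so in the 19 arrays without the weak ones (r = 0.912 and 0.841). Over the 12 sham arrays alone these values were 0.0774 and 0.02. The arrays share hearts and slides, and these correlations are descriptions. Features most like each gene were listed by Pearson's r over the 24 arrays. For Ppargc1b they were Nfix (0.947), Ipo13 (0.942) and Smco4 (0.941). For Ppara they were Qrsl1 (0.959), Fblim1 (0.958) and Alas1 (0.955), and for Perm1 Tuba8 (0.982), Asb10 (0.978) and Lynx1 (0.975). Over the 12 sham arrays alone, r in the same order was 0.447, 0.0433 and 0.462 for Ppargc1b. It was 0.591, 0.776 and 0.695 for Ppara and 0.255, 0.501 and 0.412 for Perm1. The features most like Esrrg were Cabcoco1 (0.964), Suclg2 (0.959) and Klhl21 (0.951), with r of 0.914, 0.787 and 0.88 over the 12 sham arrays. Among the features most like Ppargc1a were Amd2 (0.932) and Filip1 (0.92). Esrra was most like Vamp5 (0.959), Znrd1as (0.954) and Lrrc2 (0.952). Over the 19 arrays the values of these Ppargc1a and Esrra features dropped to between 0.616 and 0.783. Over the 12 sham arrays r was 0.477 for Amd2, 0.892 for Filip1, 0.295 for Vamp5, 0.246 for Znrd1as and 0.351 for Lrrc2. Nrf1, close to background, had no feature above 0.806 (D10Wsu102e).

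Wider lists of the network were followed in the same comparisons, against the shares of all features given above, and all counts run in the order Tg+ below, Tg+ above, wild-type below, wild-type above. Of 38 tested target genes of the ERRs and PGC-1, mostly genes of the respiratory chain, the citric acid cycle and creatine metabolism, 17, 3, 0 and 3 fell and none rose. Their median log2 differences were -0.57, -0.28, 0.06 and 0.08. Ckm, the muscle creatine kinase, differed by -1.43 ± 0.21, -0.82 ± 0.21, -0.55 ± 0.21 and -0.52 ± 0.21 (limma adjusted p = 0.000164, 0.0144, 0.135 and 0.102). Idh3b, a subunit of isocitrate dehydrogenase, fell by 1.65 ± 0.28 in Tg+ below (adjusted p = 0.000628). In the same pieces Sdhd, of complex II, fell by 0.86 ± 0.14 and Cyc1, cytochrome c1 of complex III, fell by 0.87 ± 0.14. Set directly against wild-type I/R below pieces, Tg+ I/R below pieces were lower for 11 of the 38 genes, against 1.7% of features, while the interaction of genotype and surgery below called 0 of the 38 in limma's test. Over the 19 arrays 12, 21, 1 and 7 of the 38 fell in the order above, with medians of -0.31, -0.28, -0.12 and -0.28, so the wild-type medians changed sign.

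PPARalpha target genes did not move as one. Of 32 tested, 5, 5, 3 and 4 rose and 7, 0, 0 and 0 fell, with medians of -0.14, 0.05, 0.08 and 0.17. Angptl4, a secreted inhibitor of lipoprotein lipase, rose by 4.02 ± 0.64, 2.70 ± 0.64, 2.94 ± 0.64 and 2.45 ± 0.64 (limma adjusted p = 0.000299, 0.00933, 0.0105 and 0.0162). Plin2, which coats lipid droplets, rose by 1.48 ± 0.20, 0.74 ± 0.20, 0.96 ± 0.20 and 0.65 ± 0.20 in the same order. Ppara itself was lower in those pieces. In Tg+ below, Hadhb, of the mitochondrial trifunctional protein, fell by 1.18 ± 0.24 (adjusted p = 0.00213) and Vldlr, a lipoprotein receptor, by 0.70 ± 0.13 (adjusted p = 0.000897), and neither passed in another comparison. Over the 19 arrays 8, 11, 5 and 2 rose and 1, 5, 0 and 3 fell, with medians of 0.15, 0.05, 0.02 and -0.07, of which the first and last changed sign.

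Of 24 tested genes that transcribe, copy and maintain mitochondrial DNA and its RNA, 10, 6, 0 and 5 fell and 1, 0, 0 and 0 rose. Lrpprc, which stabilises mitochondrial mRNA, differed by -1.34 ± 0.24, -0.79 ± 0.24, -0.59 ± 0.24 and -0.79 ± 0.24, with all but wild-type below past the threshold. Lonp1, the protease that degrades Tfam, fell by 0.71 ± 0.18, 0.58 ± 0.18 and 0.71 ± 0.18 in Tg+ below, Tg+ above and wild-type above. Mterf2, a regulator of mitochondrial transcription, fell by 1.03 ± 0.20, 0.69 ± 0.20 and 0.66 ± 0.20 in the same 3 comparisons. Supv3l1, a mitochondrial RNA helicase, fell by 0.67 ± 0.16 in Tg+ below and by 0.58 ± 0.16 in wild-type above. Over the 19 arrays 2, 16, 1 and 5 of the 24 fell and 0, 1, 1 and 0 rose.

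Among 31 tested transcription factors and coregulators of the network other than the 8 genes, 6, 3, 2 and 2 fell and 0, 1, 0 and 1 rose. Rxrg, a partner receptor of PPARalpha, fell in all 4 comparisons, by 1.15 ± 0.20, 0.84 ± 0.20, 0.73 ± 0.20 and 0.78 ± 0.20 (limma adjusted p = 0.000612, 0.00972, 0.039 and 0.0148). Lpin1, a phosphatidate phosphatase that also binds PGC-1alpha and PPARalpha, fell by 0.88 ± 0.16 and 0.70 ± 0.16 in Tg+ below and Tg+ above. Ncor1, a corepressor, fell by 0.42 ± 0.12 and 0.65 ± 0.12 in wild-type below and wild-type above. Esrrb, the remaining estrogen-related receptor, fell by 0.88 ± 0.21 in Tg+ below (adjusted p = 0.00547) and passed in no other comparison. Of 19 tested kinases and sensors upstream of PGC-1, 7, 3, 2 and 3 fell and 0, 0, 0 and 1 rose. Mapk14, the p38alpha kinase that phosphorylates PGC-1alpha, fell by 0.28 ± 0.09, 0.31 ± 0.09, 0.38 ± 0.09 and 0.37 ± 0.09. Prkaa2, the AMP-activated kinase subunit of muscle, fell by 1.30 ± 0.23, 0.82 ± 0.23 and 0.88 ± 0.23 in Tg+ below, Tg+ above and wild-type above, and its wild-type below value was -0.76 ± 0.23 (adjusted p = 0.0643). Camk2d, a calcium-dependent kinase of heart muscle, fell by 0.54 ± 0.14, 0.56 ± 0.14 and 0.51 ± 0.14 in Tg+ below, wild-type below and wild-type above, and Prkab1, a further subunit of the AMP-activated kinase, fell by 0.44 ± 0.11 in Tg+ above alone. Over the 19 arrays 2, 6, 5 and 3 of the factors fell and 0, 2, 0 and 1 rose, and 2, 9, 3 and 1 of the kinases fell and 0, 0, 1 and 0 rose.

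**Figure D5:**
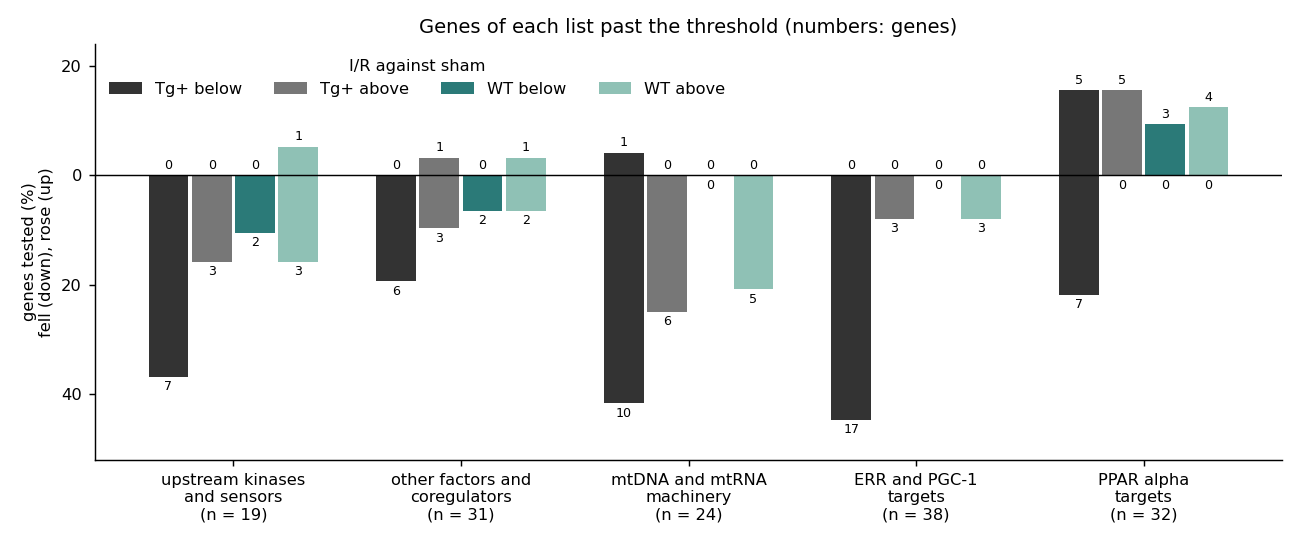
Share of the tested genes of 5 lists that rose (up from 0) or fell (down from 0) after I/R at an adjusted p under 0.05, by genotype and piece, with the number of genes at each bar. The tallest bars are the 17 of 38 ERR and PGC-1 targets and the 10 of 24 genes of mitochondrial DNA and RNA upkeep that fell in Tg+ below pieces.

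Markers of the heart's cell types were followed in the same comparisons and order. Of all features, 15.4%, 6.94%, 2.14% and 5.96% rose and 17.1%, 8.38%, 3.46% and 7.3% fell. Several counts below lie near these shares, such as 2 of 10 fibroblast markers that rose in Tg+ below. Counts over the 19 arrays stand against the shares given earlier for those arrays. In bulk pieces fewer cells of a type and less RNA per cell cannot be told apart. The mean log2 ratio over 11 ventricular cardiomyocyte markers, all detected, was 2.89 to 3.56 in Tg+ I/R below pieces, against 3.90 to 4.06 in Tg+ sham below pieces. It was 3.32 to 3.51 against 3.84 to 4.02 in Tg+ above pieces, 3.38 to 3.75 against 3.53 to 4.01 in wild-type below and 3.21 to 3.74 against 3.46 to 4.01 in wild-type above. Of the 11, 5, 2, 0 and 1 fell and none rose, with medians of -0.70, -0.30, -0.34 and -0.35.
Of 11 neutrophil markers listed, 10 were on the array, 8 were well above background on some array and 5 passed the filter. The markers without such a signal were Ly6g, Elane and Csf3r, of which 1 had no probe under its name and so was not measured. A marker could pass the filter through an I/R group alone, so the tested set favours markers that rose. After I/R, 5, 4, 4 and 3 of the 5 tested markers rose. Their mean log2 ratio was -0.40 to 0.28, -1.46 to -0.42, -0.95 to 0.28 and -1.40 to 0.10 in the 4 I/R groups, against -2.32 to -2.04 over the sham groups. Macrophage and monocyte markers rose for 3, 5, 1 and 3 of 12, and fibroblast markers for 2, 3, 0 and 0 of 10. Of 14 macrophage and monocyte markers listed, 13 were on the array, and Ly6c2 had no probe under that name. Of 7 tested atrial markers, 2, 3, 0 and 1 rose, and their mean log2 ratio was 1.59 to 1.76 in Tg+ I/R above and -0.38 to 2.71 in wild-type I/R above, against -1.25 to 1.17 in Tg+ sham above and -0.98 to 0.31 in wild-type sham above. In Tg+ below pieces it was -0.66 to 0.10 after I/R, against -1.19 to -1.03 after sham surgery, and in wild-type below pieces -1.04 to -0.33, against -1.05 to -1. Of 6 tested fat markers 3, 0, 0 and 1 rose, with Lep and Elovl3 not well above background on any array. Endothelial markers gave 2, 1, 0 and 0 that rose and 2, 0, 2 and 3 that fell of 10, and smooth muscle and pericyte markers 1, 1, 0 and 1 that rose and 3, 3, 3 and 5 that fell of 9. None of 3 tested erythroid markers passed. Over the 19 arrays 1, 6, 0 and 6 of the atrial markers rose, 0, 7, 0 and 3 of the fibroblast, 3, 8, 3 and 7 of the macrophage and monocyte, 4, 5, 4 and 1 of the neutrophil and 1, 5, 0 and 1 of the fat markers, and 3, 5, 0 and 3 of the ventricular markers fell. Of the endothelial markers 0, 5, 0 and 0 rose and 2, 1, 2 and 2 fell, of the smooth muscle and pericyte markers 0, 2, 0 and 2 rose and 4, 4, 3 and 4 fell, and of the erythroid markers 0, 1, 0 and 0 rose and 1, 1, 2 and 1 fell. The median atrial difference was then 0.47, 2.08, 0.03 and 2.21, against 0.77, 2.08, 0.18 and 0.93 with all arrays. The part of any of these cell types in the values of the 8 genes was not tested.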

How the data were processed

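Heart RNA (Cy5) and pooled pup RNA (Cy3) were hybridised to 24 Agilent arrays on 7 slides with no dye swap. The label text names Cy3 for the heart RNA in its protocol and Cy5 in its label fields, and Cy5 was used. The deposited files hold spot intensity and Agilent's log10 ratio from Feature Extraction 9.5.3.1, per the file headers, and the deposited series table holds log2 ratios of unstated centring. That table correlated with Agilent's ratio on every array and was an alternative.

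Intensities were background-corrected (normexp, offset 50), normalised by loess within each array and fitted with limma 3.58.1 in R 4.3.3 as 8 group means (16 residual degrees of freedom). Of 41174 probes 15412 passed the filter on dim probes, giving 11419 features, each by its brightest probe. P-values were Benjamini-Hochberg adjusted over all features, threshold 0.05. The procedure was tested on simulated data. The number of arrays limits the precision. The members and lists were chosen with earlier results of these data known. Named genes were the 8 members, up to 4 genes per list of smallest adjusted p over the 4 I/R comparisons, and the 3 features most like each member, of which 1 is not reported here. Same-numbered pieces correlated above 0.1 in 8 of 12 pairs. In Tg+ r ran from 0.128 to 0.54, each pair best with its own number, and in wild type from -0.73 to 0.529. No label says that pieces of one number share a heart, and the number was not taken as a pairing. Alternatives covered background, normalisation, filter, slide, array weights, probe choice and arrays left out. Array coordinates were not used here because no source used here names the array's build.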

Additional observations from a re-analysis of the deposited data

How the results depend on the processing

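Counts below are of the 8 genes past the threshold. Over the alternatives other than probe choice and leaving out 1 array, 1433 of 1512 values of single genes kept their side of the threshold. Of the rest, 28 lost and 51 gained a call, and none reversed. A change of sign short of the threshold was not counted as a reversal. In wild-type above, for example, the I/R difference of Ppargc1a was -0.66 with all arrays and 0.13 without the weak ones. The 2 reversals came from the dimmer Tfam probe, at -0.63 in Tg+ below and -0.81 in Tg+ above, a choice added after the data were seen. Agilent's log ratio and the series value table each gave 0 in Tg+ above, 0 in wild-type below and 1 for Tg+ against wild type in I/R below pieces, and the Cy5 channel alone gave 1, 1 and 1. An offset of 10 gave 3 for Tg+ against wild type in I/R below. Requiring signal on all 24 arrays gave 2, 1, 0 and 1 in Tg+ below, Tg+ above, wild-type below and wild-type above, and 1 and 1 for the genotypes in I/R below and above, with fewer genes tested. Slide as a block gave 2 in Tg+ below, 1 in wild-type below and 1 for the genotypes in I/R above. Array weights gave 7, 5 and 6 in Tg+ below, Tg+ above and wild-type above, 5 and 1 for the genotypes in I/R below and above, 5 and 1 for the interaction of genotype and surgery below and above, and 2 for the interaction of piece and surgery in Tg+. Without the 5 weak arrays there were 5 in Tg+ above and 2 for the genotypes in I/R below. Fitting only the arrays of a comparison gave 5 in Tg+ above and 0 in wild-type below. Apart from the stated construction, the cause of these shifts was not tested.

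Leaving out 1 array gave 3 to 5 in Tg+ below, 2 to 3 in Tg+ above, 1 to 3 in wild-type below and 2 to 4 in wild-type above. For Tg+ against wild type it gave 0 to 5 in I/R below and 0 to 1 in I/R above, and for the interaction of genotype and surgery below 0 to 2, and 0 in the other comparisons. The 5 and the 2 came without the weak wild-type I/R below replicate 1, and 3 for the genotypes in I/R below came without Tg+ I/R below replicate 1. The replicate block, with the number as a fixed term, gave 4, 2, 2 and 2 in Tg+ below, Tg+ above, wild-type below and wild-type above, and with the heart as a random block 4, 3, 2 and 2, where both ended the Perm1 call in wild-type above (adjusted p = 0.067 and 0.0514). Of the 12 same-numbered pairs, 7 correlated best with their own number. Weak Cy5 signal limits Nrf1 and Esrrg most.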
